A study of Homo sapiens with 6 samples.

Results

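A set of 48 genes that encode the machinery of mRNA deadenylation, decapping, 5′-3′ and 3′-5′ decay and nonsense-mediated decay (NMD) was followed in Kelly cells, a human neuroblastoma line labelled as MYCN-amplified. The genes were taken by symbol from a list, and all 48 were found among the 19923 protein-coding genes of the count tables. There were 3 libraries from cells given a control siRNA (siControl) and 3 from cells given an siRNA against METTL3 (siMETTL3), each collected 72 hours after lipid transfection. METTL3 is the catalytic subunit of the enzyme that places N6-methyladenosine (m6A) on mRNA. All cells are labelled with the genotype WT. They are a single established line, the knockdown is transient and partial, and the labels do not say whether the libraries of a group came from separate cultures, so p-values measure the spread between these libraries, which may be technical.

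Most mRNAs are degraded in a series of steps. The poly(A) tail is shortened by the PAN2-PAN3 and CCR4-NOT nucleases, after which the mRNA is either decapped by DCP2 and digested from the 5′ end by XRN1, or digested from the 3′ end by the RNA exosome. NMD uses UPF and SMG proteins to remove mRNAs whose translation ends too early, and ZFP36-family proteins and the TOB and BTG adaptors bring CCR4-NOT to particular mRNAs. The pathway is known for its link to m6A: the reader YTHDF2 recruits CCR4-NOT to methylated mRNAs through CNOT1.

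Levels are given as CPM, counts scaled to a common library size with edgeR's TMM factors. A gene is said to have risen or fallen where edgeR's quasi-likelihood test gave a Benjamini-Hochberg adjusted p (FDR) under 0.05 over all 15311 tested genes. Library totals went from 15430000 to 21565013 counts, with the lowest in siControl replicate 3, which also stood farthest from the other libraries of its group (correlation of log2 CPM across genes 0.986 and 0.990 with them, against 0.992 to 0.994 for the other pairs within a group). METTL3 (chromosome 14) was measured at 53.5, 52.8 and 56.2 CPM in siControl and at 32.99, 31.8 and 34.3 CPM in siMETTL3, a log2 fold change of -0.71 (SE 0.0696, edgeR FDR 4.68e-06). The 10 noradrenergic neuroblastoma markers summed to between 6178 and 6626 CPM in siControl and between 8828 and 9394 CPM in siMETTL3. Of 14 markers of other cell types, KRT5 was at 0 in every library and 6 others stayed under 1 CPM. The fibroblast list summed to 82.6 to 96.2 CPM in siControl and 85.3 to 92.2 CPM in siMETTL3, most of it PDGFRB, and the epithelial, leukocyte and endothelial lists reached at most 8.31, 2.87 and 9.25 CPM. Of these markers, COL1A1 rose from 2.96 ± 1.27 to 5.26 ± 0.471 CPM and VWF from 4.66 ± 0.714 to 7.54 ± 1.09 CPM (SD, n = 3; edgeR FDR 0.0200 and 0.00592), and their part in the results was not tested.

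Every one of the 48 decay genes passed the filter on low counts. In siMETTL3, 6 of them rose and 13 fell, and the other 29 did not pass the threshold. That is 39.6% of the members called, against 37.8% of all tested genes (18.6% higher and 19.2% lower), a share near the background. The median log2 fold change was -0.05 over the members and -0.0021 over all tested genes, no member that was called changed as much as 2-fold, and the groups did not overlap in 26 members (54.2%), against 49.9% of all tested genes. The members' summed level was 3957 to 4033 CPM in siControl and 3731 to 3821 CPM in siMETTL3. Abundant members weigh most in this sum: mean CPM went from 510 to 434 for CNOT1, 163 to 97.8 for DCP2 and 224 to 182 for SMG5. Over all members, 19 had a log2 fold change above 0 and 29 below, and no background was computed for the sum. Without siControl replicate 3 there were 9 higher and 13 lower members, with PATL1, ZFP36L2 and EXOSC10 added to the higher ones.

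**Figure D1:**
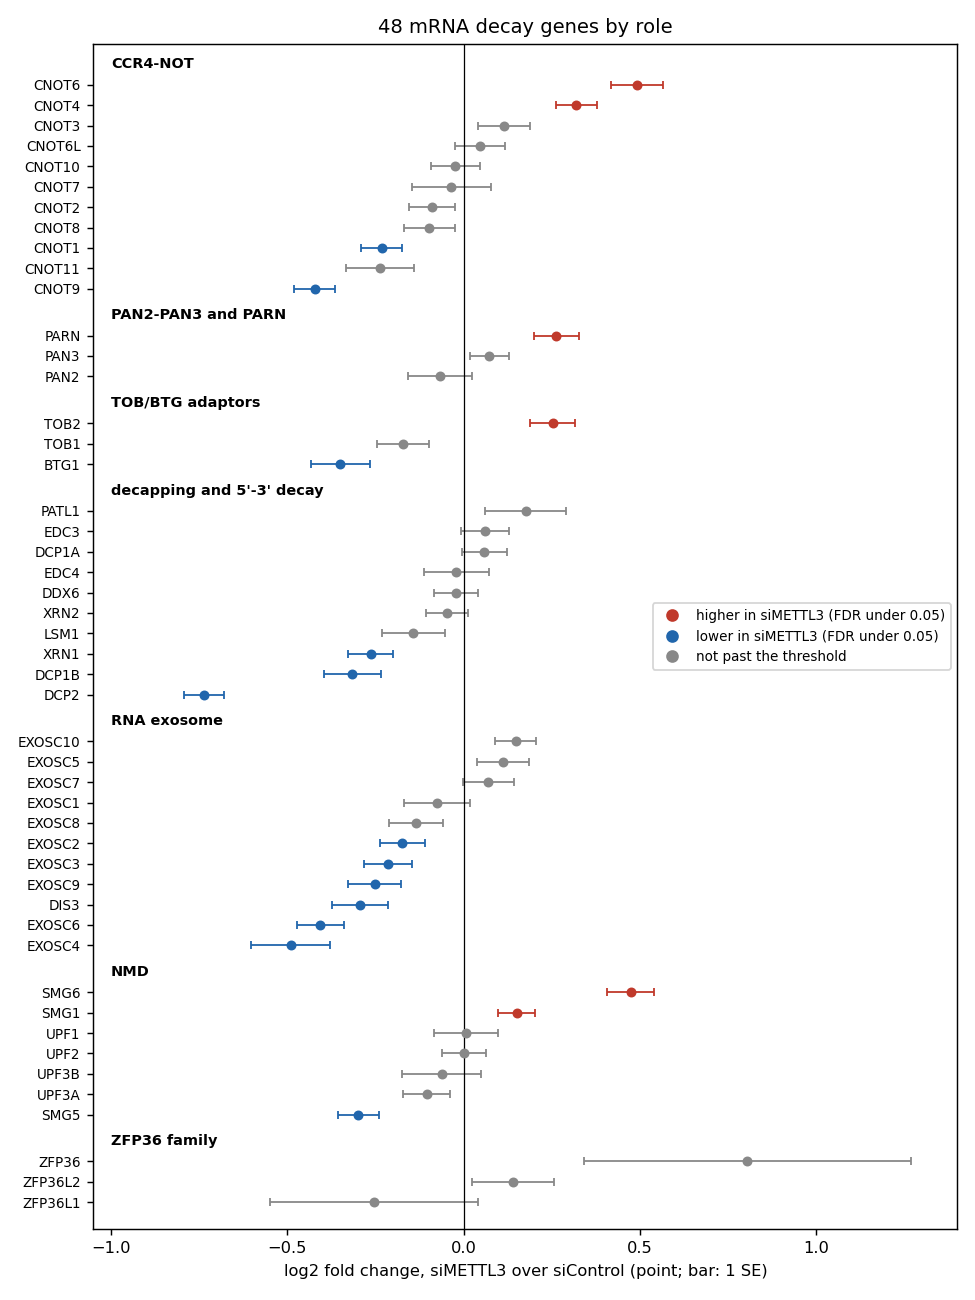
Log2 fold change (siMETTL3 over siControl) of the 48 decay genes, grouped by role; points are edgeR estimates, bars are 1 SE from 3 libraries in each group, and colours give the call. DCP2 lies farthest to the left at -0.74, and CNOT6 (0.49) and SMG6 (0.47) lie farthest to the right among the called genes.

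Sequences are shown first for some of the called genes. METTL3 methylates adenosines in a short consensus whose best-known form is GGACU, written GGACT in DNA letters, and m6A is known to be frequent near stop codons. GGACT was searched on the sense strand of each gene's canonical transcript (GENCODE release 44, GRCh38). Within 200 bases on either side of the end of the coding sequence it was present in 15 of 48 members (31.2%) and in 36.9% of 14581 tested genes. The 25 bases around the GGACT nearest to the end of the coding sequence are given here for 4 called members, with the pentamer in capitals. These 4 were picked and do not stand for the members as a whole.
EXOSC6: gactgtggttGGACTgacctgactg
SMG5: agaatgttctGGACTtctacaagca
SMG6: acaaggctaaGGACTtcatgcccgc
DCP2: gaacctcatgGGACTtttaaaagaa
The EXOSC6 site (chr16:70250940-70250964, minus strand) lies in the 3′ UTR, with the adenosine 130 bases beyond the stop codon. The SMG5 site (chr1:156250606-156250630, minus strand) and the SMG6 site (chr17:2065081-2065105, minus strand) are coding, 31 and 151 bases before its end. The DCP2 site (chr5:113014895-113014919, plus strand) is in the 3′ UTR but 1423 bases away, and DCP2 had none in the window. In other called members the nearest such site lay 112 (CNOT6), 252 (BTG1), 341 (PARN) and 1555 (CNOT9) bases from the end. The number of GGACT in the whole transcript was 7 in EXOSC6, 8 in SMG5, 5 in SMG6 and 4 in DCP2. Higher members had it in the window in 2 of 6 cases, lower members in 5 of 13 and the remaining members in 8 of 29. Over all tested genes the shares were 39.7% of higher, 35.7% of lower and 36.4% of the remaining genes. A match gives only the letters, and methylation was not measured in these files.

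The 250 bases upstream of the RefSeq transcription start (GRCh38.p14) were found for 42 of the 48 members. They are printed for the member that fell most and for the called member that rose most, with matches to the motifs searched in capitals.
DCP2: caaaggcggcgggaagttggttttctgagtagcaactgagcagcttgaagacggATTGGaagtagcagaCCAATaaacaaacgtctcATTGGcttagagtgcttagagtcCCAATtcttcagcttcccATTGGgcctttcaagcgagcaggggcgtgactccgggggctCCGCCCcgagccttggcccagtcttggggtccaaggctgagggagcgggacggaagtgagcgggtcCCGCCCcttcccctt
CNOT6: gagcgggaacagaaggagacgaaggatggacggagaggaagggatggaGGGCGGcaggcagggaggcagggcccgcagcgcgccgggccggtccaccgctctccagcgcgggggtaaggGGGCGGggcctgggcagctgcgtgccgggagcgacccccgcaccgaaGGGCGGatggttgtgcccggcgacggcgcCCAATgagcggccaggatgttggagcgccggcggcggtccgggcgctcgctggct
The DCP2 window is chr5:112976548-112976797 and the CNOT6 window chr5:180494129-180494378, both on the plus strand. The last 96 bases of the DCP2 window, with both of its GC boxes, lie inside the gene span used for counting. For some other members the RefSeq start lay far from the start of that span, by 66938 bases in SMG6 and 16345 in EXOSC3. Their windows are among the 42. The motifs, searched on both strands, were the CCAAT box, the GC box (GGGCGG), the E-box (CACGTG), the core of ETS factors (spelled CCGGAA) and the cyclic AMP response element (spelled TGACGTCA). No matches overlapped in these windows. DCP2 held 5 matches to CCAAT between 196 and 118 bases upstream, a number reached by 0.363% of 27305 promoter windows, and 2 GC boxes. CNOT6 held 3 GC boxes, a number reached by 14.0% of all windows, and 1 CCAAT. Neither had the E-box that MYCN binds, which was present in 4 of 42 members (9.52%) and 6.49% of all windows. The GC box was present in 76.2% of the members' windows and 42.3% of all windows. The 27305 windows are not limited to tested genes, whereas every member was tested. Motif shares among tested genes were not computed, so these differences cannot be read as particular to decay genes.

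Among the 11 genes listed for CCR4-NOT, CNOT6 and CNOT4 rose and CNOT9 and CNOT1 fell. The other 7 did not pass the threshold, with log2 fold changes between -0.24 and 0.11. The share called, 36.4%, was near the 37.8% of all tested genes. CNOT6 (chromosome 5, 180494379 to 180578358) encodes a deadenylase subunit. It was measured at 67.4, 62.5 and 75.9 CPM in siControl and at 98.4, 91.2 and 99.1 CPM in siMETTL3. The groups were separate, with the higher values in siMETTL3, and the log2 fold change was 0.49 (SE 0.0735, edgeR FDR 0.000173). CNOT9 (chromosome 2, 218568580 to 218597080), a subunit that binds partner proteins such as TNRC6, had 151, 138 and 148 CPM in siControl and 113, 106 and 107 CPM in siMETTL3. The groups were again separate, with a log2 fold change of -0.42 (SE 0.0586, edgeR FDR 9.17e-05). CNOT4, a ubiquitin ligase, rose from 103 ± 3.60 to 128 ± 5.65 CPM (SD, n = 3; log2 fold change 0.32, edgeR FDR 0.000787). CNOT1, the scaffold on which the subunits assemble and the most abundant member by counts, fell from 510.0 ± 27.8 to 434 ± 11.6 CPM (SD, n = 3; log2 fold change -0.23, edgeR FDR 0.00646). The span of CNOT1 shares 1.12% with SETD6, which had a log2 fold change of -0.26.

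The catalytic subunits come in paralogous pairs of which a complex holds 1 each. CNOT6L, the alternative to CNOT6, was at 52.4, 49.1 and 55.0 CPM in siControl and at 55.1, 50.7 and 55.7 CPM in siMETTL3, with overlapping groups. The log2 ratio of CNOT6L to CNOT6 counts was -0.39 ± 0.064 (SD, n = 3) in siControl and -0.84 ± 0.0074 (SD, n = 3) in siMETTL3, so that it was lower by 0.45 in siMETTL3. With 3 libraries against 3 the exact two-sided permutation test cannot give a p below 0.10, and it gave 0.10 here (0.18 after Benjamini-Hochberg adjustment over the 9 pairs compared). For CNOT8 and CNOT7, the other deadenylase pair, the ratio changed by -0.07 and the groups overlapped (exact permutation p = 0.80). CNOT7 was the more variable in siControl, at 62.7, 75.1 and 91.1 CPM against 70.4, 74.6 and 77.6 CPM in siMETTL3.

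PARN, a poly(A)-specific ribonuclease that also trims the ends of small noncoding RNAs, rose. Its levels were 62.4, 63.7 and 60.9 CPM in siControl and 80.2, 72.2 and 72.1 CPM in siMETTL3, without overlap (log2 fold change 0.26, SE 0.0646, edgeR FDR 0.00572). The nuclease PAN2 and its partner PAN3 did not pass the threshold. PAN2 was at 23.1 ± 1.94 CPM in siControl and 22.05 ± 0.628 CPM in siMETTL3, and PAN3 at 113 ± 3.32 and 119 ± 2.90 CPM (SD, n = 3).

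The adaptors TOB1, TOB2 and BTG1 bind the CNOT7 and CNOT8 deadenylases and restrain proliferation. BTG1 (chromosome 12, 92140278 to 92145846) was at 30.7, 29.9 and 33.5 CPM in siControl and at 23.5, 24.3 and 26.0 CPM in siMETTL3. All siMETTL3 values were below all siControl values, with a log2 fold change of -0.35 (SE 0.0841, edgeR FDR 0.00505). Once the length of introns was offset, it was -0.21 and no longer past the threshold (edgeR FDR 0.0668, the highest over its alternatives, against a lowest of 0.00336). TOB2 rose; its siControl values were 54.9, 52.0 and 50.4 CPM and its siMETTL3 values 62.9, 62.8 and 61.9 CPM (log2 fold change 0.25, edgeR FDR 0.0062). TOB1 was at 43.9, 49.0 and 50.1 CPM and at 40.7, 43.2 and 42.9 CPM, and did not pass the threshold. The log2 ratio of TOB2 to TOB1 was 0.14 ± 0.17 in siControl and 0.57 ± 0.055 in siMETTL3 (SD, n = 3; exact permutation p = 0.10, adjusted 0.18), with no overlap between the groups.

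DCP2 fell more than any other member. It encodes the enzyme that removes the 5′ cap, and it lies on chromosome 5 (112976702 to 113022195). Its counts were 3350, 3285 and 2550 in siControl and 2073, 2115 and 1964 in siMETTL3, or 155, 164 and 169 CPM against 101, 97.1 and 95.6 CPM. The siMETTL3 level was 60.1% of that of siControl, with a log2 fold change of -0.74 (SE 0.0572, edgeR FDR 6.21e-07), close in size to that of METTL3 itself at -0.71. Over the 18 alternatives in which DCP2 was tested the log2 fold change lay between -0.77 and -0.71, and it was past the threshold in each. The DCP2 span shares 0.213% with MCC, which did not pass the threshold (log2 fold change -0.04).

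**Figure D2:**
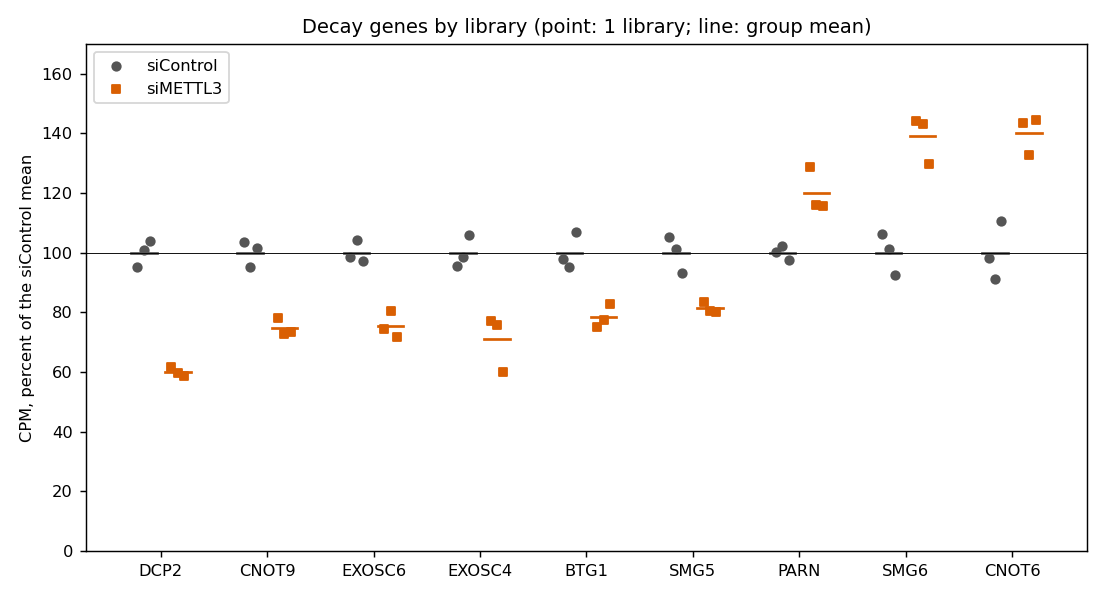
CPM of 9 decay genes in each library, as a percentage of the gene's siControl mean; circles are siControl and squares siMETTL3 libraries, and lines are group means (n = 3). The DCP2 points of siMETTL3 sit near 60.1%, and no siMETTL3 point of any of these genes falls within the siControl range.

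Of the other 9 members of the decapping and 5′-3′ group, DCP1B and XRN1 fell and 7 did not pass the threshold, with log2 fold changes between -0.14 and 0.18. No member of this group rose. The share called was 30% of the group, against 37.8% of all tested genes (18.6% higher and 19.2% lower). XRN1, the cytoplasmic exonuclease that digests decapped mRNA, was at 119, 113 and 129 CPM in siControl and at 104, 96.5 and 99.8 CPM in siMETTL3 (log2 fold change -0.26, SE 0.0637, edgeR FDR 0.00523), without overlap. XRN2, its nuclear relative, was at 221 ± 10.2 and 214 ± 10.5 CPM (SD, n = 3) with overlapping groups. The log2 ratio of XRN2 to XRN1 was 0.88 ± 0.040 in siControl and 1.10 ± 0.018 in siMETTL3 (SD, n = 3; exact permutation p = 0.10, adjusted 0.18).

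DCP1B, which activates DCP2 together with its paralog DCP1A, was at 39.6, 42.7 and 44.1 CPM in siControl and at 32.2, 32.3 and 37.0 CPM in siMETTL3 (log2 fold change -0.32, edgeR FDR 0.00743). Both DCP1 spans run into calcium channel genes, whose reads count for both genes where they overlap: 57.7% of DCP1B with CACNA1C, which rose by 0.50 on the log2 scale, and 29.0% of DCP1A with CACNA1D, which rose by 0.34. DCP1A did not pass the threshold, at 51.8 ± 1.34 and 54.0 ± 1.14 CPM (SD, n = 3). The part of the shared reads in either value was not tested. The decapping enhancers EDC3, EDC4, LSM1 and PATL1 and the helicase DDX6 were in the group that did not pass. DDX6 was at 191 ± 10.5 CPM in siControl and 188 ± 10.8 CPM in siMETTL3 (SD, n = 3).

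Of the 11 RNA exosome genes, 6 fell and none rose, with a median log2 fold change of -0.17. Among all tested genes 19.2% fell and 18.6% rose. EXOSC6 (chromosome 16, 70246778 to 70251940), a subunit of the ring through which RNA is threaded, had the smallest FDR of the group. It was at 67.4, 71.3 and 66.4 CPM in siControl and at 50.9, 54.9 and 49.1 CPM in siMETTL3, with separate groups (log2 fold change -0.41, SE 0.0668, edgeR FDR 0.000356). EXOSC4 (chromosome 8), another ring subunit, was at 19.7, 20.3 and 21.8 CPM in siControl and at 15.9, 15.6 and 12.4 CPM in siMETTL3, also without overlap (log2 fold change -0.49, SE 0.112, edgeR FDR 0.00356). EXOSC4 had the fewest counts of the called members, 254 to 424 in a library.

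The other falls in the exosome were those of the ring subunit EXOSC9 (log2 fold change -0.25, edgeR FDR 0.0164), the cap subunits EXOSC2 (-0.17, FDR 0.0461) and EXOSC3 (-0.21, FDR 0.0220), and the catalytic subunit DIS3 (-0.29, FDR 0.00995). In all 4 the siMETTL3 libraries lay below the siControl libraries. DIS3 was at 90.7, 99.1 and 111 CPM in siControl and at 78.5, 77.3 and 89.0 CPM in siMETTL3. The nuclear catalytic subunit EXOSC10 was at 71.2, 71.9 and 73.8 CPM in siControl and at 79.1, 78.1 and 82.9 CPM in siMETTL3. Every siMETTL3 value of EXOSC10 was the higher, but it did not pass the threshold (edgeR FDR 0.0618), and the remaining EXOSC1, EXOSC5, EXOSC7 and EXOSC8 had overlapping groups.

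Several of the exosome calls were lost when a library was left out or when a property of the genes was offset. EXOSC2 was past the threshold in 8 of 19 alternatives and was lost when any library other than siControl replicate 3 was left out (edgeR FDR 0.119 without siControl replicate 1, 0.112 without siControl replicate 2, and 0.0832, 0.182 and 0.0840 without siMETTL3 replicates 1, 2 and 3). EXOSC3 was lost without siControl replicates 1 or 2 or siMETTL3 replicates 2 or 3 (FDR 0.0591, 0.0700, 0.0844 and 0.0935). EXOSC9 was lost without siControl replicate 2 or siMETTL3 replicates 1 or 2 (FDR 0.0812, 0.0548 and 0.0852), and DIS3 without siMETTL3 replicates 1 or 2 (FDR 0.0569 and 0.0597). Offsetting intron length left EXOSC6, which has a single exon, at a log2 fold change of -0.16 (edgeR FDR 0.0754), EXOSC2 at -0.12 (FDR 0.169) and EXOSC3 at -0.10 (FDR 0.276). Offsetting GC content and transcript length left EXOSC9 at -0.14 (edgeR FDR 0.0876, and 0.101 with the replicate block) and EXOSC3 at -0.12 (FDR 0.192, and 0.138 with the block), neither past the threshold. The EXOSC3 span lies wholly inside AL138752.2, which rose by 0.23 on the log2 scale, and also meets DCAF10 and TRMT10B, which did not pass the threshold (0.04 and -0.12).

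Per kilobase of canonical transcript, siControl levels within the exosome went from 9.48 ± 0.949 CPM per kb for DIS3 and 13.2 ± 0.501 CPM per kb for EXOSC6 to 68.2 ± 6.62 CPM per kb for EXOSC7 (SD, n = 3). The counts cover introns and shared spans, while the length is that of the spliced transcript, so these values do not rank transcript levels. EXOSC7 has 34186 bases of intron and EXOSC6 has none. EXOSC5 (67.4 ± 6.40 CPM per kb) and EXOSC7 did not differ beyond their spread, and both share 56.8% or more of their span with other genes.

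In NMD the factors that act on the bound mRNA differed in direction: SMG6 rose, SMG5 fell, and the UPF genes did not pass the threshold. SMG6 (chromosome 17, 2059839 to 2303785) encodes the endonuclease that cuts NMD substrates near the stop codon. It was at 104, 99.7 and 91.0 CPM in siControl and at 142, 141 and 128 CPM in siMETTL3, with separate groups (log2 fold change 0.47, SE 0.0667, edgeR FDR 0.000105). SMG5 (chromosome 1, 156249224 to 156282825), which binds phosphorylated UPF1 and helps recruit decay factors, was at 236, 226 and 209 CPM in siControl and at 187, 179.5 and 179 CPM in siMETTL3. All siMETTL3 libraries were lower in SMG5, with a log2 fold change of -0.30 (SE 0.0591, edgeR FDR 0.00136). Members shown by library outside the rule for such values (SMG5, TOB1, TOB2, XRN1, DCP1B, DIS3, EXOSC10, UPF1, CNOT6L, CNOT7 and the ZFP36 genes) were chosen after their values were seen.

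The log2 ratio of SMG6 to SMG5 was -1.17, -1.18 and -1.20 in siControl, in replicates 1 to 3, and between -0.49 and -0.35 in siMETTL3. It was higher by 0.77 in siMETTL3, the largest difference among the 9 pairs and many times the SD of either group (0.013 and 0.071; exact permutation p = 0.10, adjusted 0.18). On the scale of CPM per kilobase of transcript, SMG5 went from 49.03 ± 2.99 to 39.9 ± 0.935 and SMG6 from 16.5 ± 1.15 to 22.9 ± 1.33 (SD, n = 3), so SMG5 remained the higher on this scale. The counts include introns, 237969 bases in SMG6 and 29043 in SMG5, so these values do not rank the levels of the 2 transcripts. When intron length was offset, SMG6 had a log2 fold change of 0.41 and SMG5 of -0.31, both still past the threshold.

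**Figure D3:**
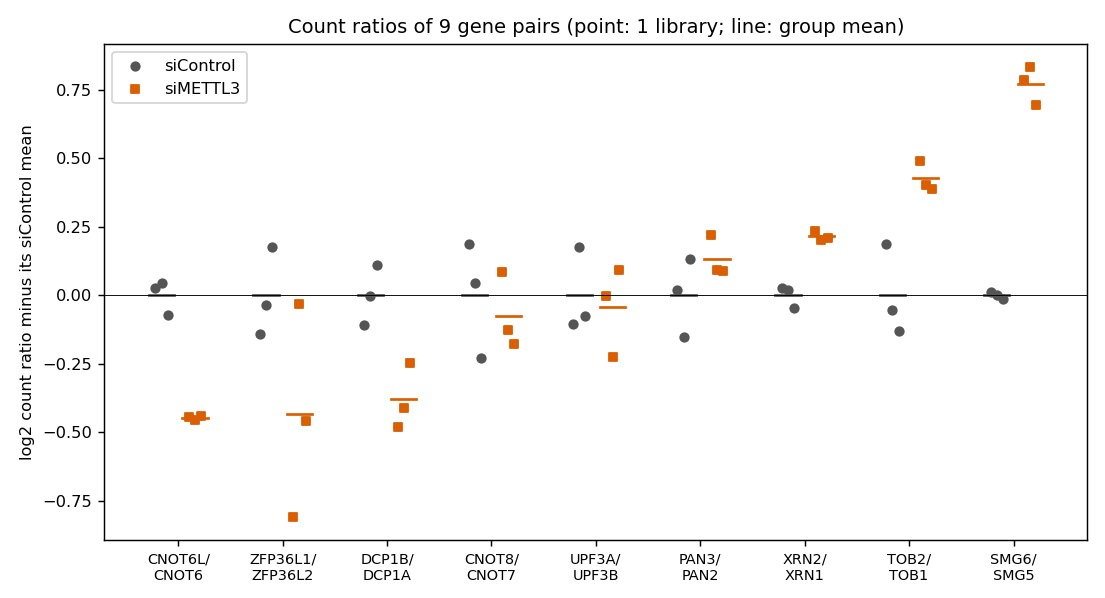
Log2 ratio of the counts of 9 gene pairs in each library, after subtraction of the pair's siControl mean; circles are siControl and squares siMETTL3 libraries, and lines are group means (n = 3). SMG6/SMG5 is higher by 0.77 and CNOT6L/CNOT6 lower by 0.45 in siMETTL3, while CNOT8/CNOT7, UPF3A/UPF3B, PAN3/PAN2 and ZFP36L1/ZFP36L2 overlap between the groups.

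UPF1, the helicase at the centre of NMD, was at 95.04, 94.9 and 72.4 CPM in siControl and at 85.7, 90.0 and 88.6 CPM in siMETTL3. The low siControl value is that of replicate 3. UPF2, which bridges UPF1 to UPF3, was at 77.9 ± 3.91 CPM in siControl and 77.9 ± 3.18 CPM in siMETTL3 (SD, n = 3). UPF3A and UPF3B did not pass the threshold, and their log2 ratio changed by -0.04 with overlapping groups (exact permutation p = 0.80). SMG1, the kinase that phosphorylates UPF1, was called higher at 201 ± 2.30 against 181 ± 5.86 CPM (SD, n = 3; log2 fold change 0.15, edgeR FDR 0.0396). This call was lost in 9 of 19 alternatives, among them the fits without siControl replicate 2 (FDR 0.125) and without siMETTL3 replicates 1, 2 or 3 (FDR 0.124, 0.0939 and 0.125), the offset for intron length (log2 fold change 0.06, FDR 0.369) and that for GC content and transcript length (0.11, FDR 0.0742). SMG1 has near-identical pseudogene copies with which reads may be shared.

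The ZFP36 proteins bind AU-rich elements and bring CCR4-NOT to inducible mRNAs. None of the 3 passed the threshold. ZFP36L2 was the most abundant, at 20.5, 26.2 and 29.4 CPM in siControl and 25.8, 28.2 and 29.5 CPM in siMETTL3. ZFP36L1 had 40, 51 and 50 counts in siControl and 30, 60 and 44 in siMETTL3, and ZFP36 had 22, 20 and 4 counts against 14, 37 and 37. At these counts the standard errors of the log2 fold changes were 0.294 for ZFP36L1 and 0.464 for ZFP36, so changes of the size seen in other members were not detectable.

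Intron length was set beside the change of each member. The Spearman correlation across genes between total intron length and log2 fold change was 0.32 over the 48 members and 0.20 over 14589 tested genes, where genes share libraries and are not independent replicates. The median intron length was 125128 bases for the 6 higher members, 19161 for the 13 lower ones and 16599 for the rest. Of the 9 members with over 100 kb of intron, CNOT4, PARN, SMG1 and SMG6 rose and CNOT1 and XRN1 fell. The rise of SMG1 was not past the threshold once intron length was offset (log2 fold change 0.06, edgeR FDR 0.369), while those of CNOT4, PARN and SMG6 were. Among all tested genes, 29.0% of those with over 100 kb of intron rose and 15.8% fell, against 4.19% and 33.2% of the 358 genes without introns. The counts cover introns as well as exons, and the part of intronic reads in these values was not tested.

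**Figure D4:**
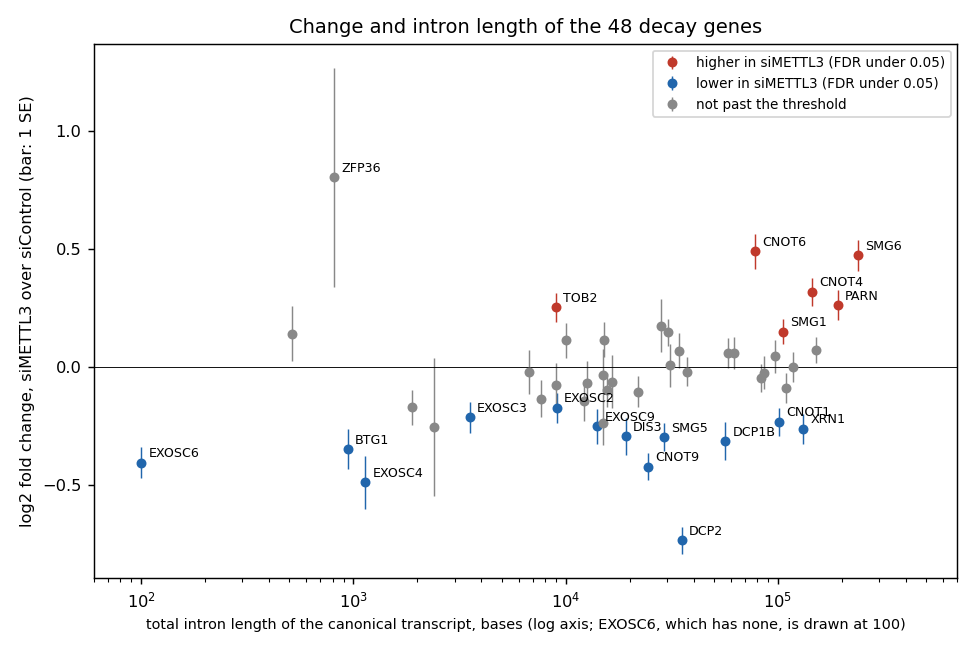
Log2 fold change (siMETTL3 over siControl, bar 1 SE) of the 48 decay genes against the total intron length of the canonical transcript in bases, on a log axis. CNOT4, PARN, SMG1 and SMG6 rose at lengths over 100 kb (SMG1 not past the threshold with intron length offset, 0.06), while DCP2 and CNOT9 fell at lengths of 35288 and 24422 bases.

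Other factors of the pathway were counted from lists written for this purpose, beside the 37.8% of all tested genes that were called (18.6% higher and 19.2% lower). Among 14 further NMD, exon junction and termination factors, 2 rose and 4 fell (42.9% called). GSPT1, the release factor eRF3a that links termination to NMD, was at 93.2, 100.5 and 99.0 CPM in siControl and at 155, 158 and 163 CPM in siMETTL3, with a log2 fold change of 0.70 (SE 0.0565, edgeR FDR 8.67e-07). The exon junction components RBM8A (log2 fold change -0.54, FDR 1.92e-05) and EIF4A3 (-0.39, FDR 0.00107) fell, each without overlap between the groups. Among 13 further decapping factors, 1 rose and 4 fell (38.5% called). PNRC1 fell most, from 34.9, 42.1 and 49.0 CPM to 23.3, 24.8 and 26.8 CPM (a log2 difference of -0.74, FDR 0.000236), and NUDT16 (-0.44) and LSM7 (-0.24) also fell.

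Among 15 exosome cofactors and relatives of DIS3, 3 rose and 2 fell (33.3% called). The rises included both noncanonical poly(A) polymerases of the list. TENT4A had 98.4 ± 6.64 CPM in siControl and 140.2 ± 7.71 CPM in siMETTL3 (log2 fold change 0.51, edgeR FDR 4.84e-05) and TENT4B from 42.2 ± 0.698 to 57.3 ± 0.545 CPM (0.44, FDR 0.000122; SD, n = 3). DIS3L2, a cytoplasmic exonuclease outside the exosome, rose by 0.26. Among 21 tested poly(A)-binding and recruiting factors, 6 rose and 4 fell (47.6% called). TNRC6A, the scaffold that joins Argonaute to CCR4-NOT, rose from 189.6 ± 1.02 to 241 ± 3.35 CPM (SD, n = 3; log2 fold change 0.35), and BTG3 (-0.48) and RC3H2 (-0.40) fell. The m6A reader YTHDF2 did not pass the threshold, at 75.1 ± 2.40 CPM in siControl and 80.3 ± 4.34 CPM in siMETTL3 (SD, n = 3).

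Published substrates of these pathways were counted as well. Of 10 tested mRNAs reported as NMD substrates, 1 rose and 6 fell, with a median log2 fold change of -0.64, against 18.6% higher and 19.2% lower among all tested genes. ATF4, CDKN1A and SLC7A11 had the smallest FDRs, with log2 fold changes of -0.84, -1.02 and -1.20. These are also targets of the amino acid stress response or of p53, whose fall in these libraries was known when the list was written, so the count and the median are no independent evidence of a direction. Of 10 tested mRNAs reported as bound by ZFP36 proteins, 1 rose and 5 fell (median -0.23). CCND1 (0.51), DUSP1 (-0.65) and E2F1 (-0.43) had the smallest FDRs. This list too was written with earlier results of these data known, so its count is no independent evidence of a direction. In bulk libraries such as these, fewer cells with an mRNA and less of it in each cell cannot be told apart.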

How the data were processed

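RNA-seq of poly(A) RNA was analysed from 6 libraries. Per the file headers, the authors deposited raw counts per gene from featureCounts 1.5.3 and a GENCODE release 33 protein-coding annotation; the submitters' processing notes also name Trimmomatic 0.36 and HISAT2 2.1.0. The counted feature was the whole gene, introns included, without strand, and reads that fell on more than 1 gene counted toward all of them. Of the counts from 1 to 20, 75.9% were even, and the command joined no mates into fragments, so a count may stand for 1 mate and not for 1 fragment (not tested). The headers call the libraries SAC-input, which the labels do not explain. Spans of 15 of the 48 members overlap another gene. Gene positions are the tables' own, on GRCh38 and counted from 1.

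Counts were filtered (filterByExpr), TMM-scaled and compared with edgeR 4.0.16 (R 4.3.3, robust quasi-likelihood test, tested on simulated data), without covariates. The simulated data had few changed genes, all of them well counted. They did not test the method where as many as 37.8% of genes are called. SE is the log2 fold change divided by the root of F, without sign. Ratios had 0.5 added to each count. Transcript features came from GENCODE release 44. Values in every library were given by rule for METTL3, for called members with an absolute log2 fold change of at least 0.4, and for the called member with the smallest FDR in each role; further lists give up to 3 genes with the smallest FDR. The members and lists were chosen with earlier results of these data known. Alternatives were other scalings, filters, DESeq2 1.42.0, limma-voom 3.58.1, a replicate block, each library left out, genes without overlaps, and offsets for intron length or for GC content and transcript length.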

Additional observations from a re-analysis of the deposited data

How the results depend on the processing

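METTL3 stayed below siControl and passed the threshold in all 19 alternatives, with a log2 fold change of -0.74 to -0.69 over the fits that left out 1 library. In the fit on genes without overlaps, METTL3 was kept by name, whether or not it overlaps another gene. Of the 19 called members, 12 were past the threshold under every alternative in which they were tested, and all 19 kept their sign; the 7 that were lost at least once were EXOSC2, SMG1, EXOSC3, EXOSC9, DIS3, BTG1 and EXOSC6. Leaving out a library gave 5 to 9 higher and 9 to 13 lower members, and over all genes 2091 to 3178 higher and 2119 to 3216 lower genes. On genes without overlaps, 7 members fell and 1852 genes rose and 1898 fell, since only 33 members and 9518 genes were tested. With the offset for intron length 6 members rose and 10 fell; the share of higher genes among all calls was 47.6% to 53.9% over the alternatives. DESeq2 called 18 members, all among the 19. The median of the CCR4-NOT genes, near 0, was 0.0080 when GC content and transcript length were offset, and that of PAN2, PAN3 and PARN was -0.0074 with the intron offset. Replicate numbers gave correlations of deviations of 0.040, 0.049 and 0.067, against at most 0.026 for other pairs between the groups. These correlations were weak, although each library correlated best with its own number, and they do not settle whether the numbers pair the libraries. With the replicate block METTL3 had a log2 fold change of -0.71, 6166 genes were called, and 20 members were called, with CNOT11 added. Depth limits ZFP36 and ZFP36L1 most.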
